A study of Mus musculus with 6 samples.

Results

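A set of 10 genes encoding small heat shock proteins and stress-inducible chaperones were followed in jaw and limb muscle of the mouse. They were the small heat shock protein genes Cryab, Hspb1, Hspb2, Hspb3, Hspb7 and Hspb8, the heat shock protein 70 genes Hspa1a, Hspa1b and Hspa8, and the co-chaperone gene Dnajb1. They were chosen by name, as every probe set whose 1 gene symbol on the platform was one of these 10. Earlier results of these data were known when the genes were chosen. All 10 were on the array, out of 12393 named genes, and they were read by 23 of its 22690 probe sets. Of these 23, 22 passed the filter on low signal, and all 10 genes kept at least 1 probe set.

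The samples were the superficial masseter, which closes the jaw, and the tibialis anterior, which lifts the foot, of normal adult female C57Bl/6 mice aged 6 months. No treatment, transgene or deletion was applied in either group. Each muscle was represented by 3 samples, numbered 1 to 3, with 1 Affymetrix Mouse 430 2A array per sample, and the comparison asked how masticatory muscle differs from limb muscle. Whether each sample came from its own mouse is not stated in the labels, so part of the spread behind the p-values may be technical. In the main fit that spread is of the differences between same-numbered samples, moderated over probe sets.

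Small heat shock proteins share an alpha-crystallin domain, assemble into oligomers and bind unfolding proteins without using ATP. In striated muscle they sit on desmin, actin, filamin and titin, and inherited changes in several of them cause myopathy or neuropathy. Proteins they hold are passed to the Hsp70 proteins, which refold clients in an ATP cycle that J-domain proteins such as Dnajb1 stimulate. Heat shock factor 1 induces many of these genes by binding heat shock elements, runs of alternating GAA and TTC units.

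The authors deposited 1 scaled signal intensity per probe set and array, with a trimmed mean of 150.1 on all 6 arrays, so the arrays stood on a common scale. Probe sets with a mean signal of at least 28.6 were kept for testing. Below, signals are listed in the order of samples 1, 2 and 3 of each muscle. The number of arrays limits the precision, and levels of different probe sets are not set against each other. Skeletal muscle markers, led by Acta1 and Mb, were present on every array, as both muscle labels imply. They summed to 124076, 145537 and 156601 in the masseter and to 175173, 170614 and 171704 in the tibialis anterior. Every masseter sum was thus lower, and the part of this gap in the differences was not tested. Features of single arrays and of the groups touch the results below. Masseter 1 carried salivary gland transcripts, with a summed signal of 62292 over 10 markers against 8131 and 3329 in the other masseter arrays and 2522 to 6010 in the tibialis anterior. The sum on masseter 1 was led by Bpifa2 at 16595, singled out after its value was seen, and Amy1 at 12976, whereas Smr2 read 1010 there, its lowest array. Tibialis anterior 3 stood apart for many of the genes described here, and the brightest probe set of each gene is therefore given with and without it. As a sign of RNA quality, 3' probes of Gapdh read 2.66 ± 0.231 times (SD, n = 3) its 5' probes on masseter arrays and 1.94 ± 0.112 times (SD, n = 3) on tibialis anterior arrays. An exact two-sided permutation test gave p = 0.1, which 6 arrays cannot go below, and the part of this ratio in the differences was not tested. The same ratio for Actb was 2.96 ± 0.335 and 2.7 ± 0.105 (SD, n = 3), with overlapping groups (exact two-sided permutation p = 0.3).

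None of the 10 genes differed between masseter and tibialis anterior beyond the threshold. In limma's moderated test with the replicate number as a block, 0 of the 22 member probe sets had a Benjamini-Hochberg adjusted p under 0.05, against 1.18% of all 13576 probe sets kept (0.56% higher and 0.619% lower in the masseter). A count of 0 of 22 lies near that share and does not set these genes apart. At an unadjusted p under 0.05 there were 5 of 22 (22.7%), against 13.1% of all probe sets. The masseter and tibialis anterior arrays did not overlap in 4 of the 22, or 18.2%, against 17.8% of all, so that share lies near the background. The estimate was above 0 in 11 probe sets and below 0 in 11, with a median of -0.02 on the log2 scale beside 0.02 over all probe sets. The median absolute difference was 0.22, the same as over all probe sets. None of 15 alternative settings moved a member past the threshold, and the smallest adjusted p among them was 0.0534, for Hspb2 without replicate 1. A p that misses the threshold does not show equal levels, so the 95% interval of each difference is given beside it, always as the log2 level of the masseter minus that of the tibialis anterior, with the fit's standard error (SE) and n = 3 arrays per muscle.

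**Figure D1:**
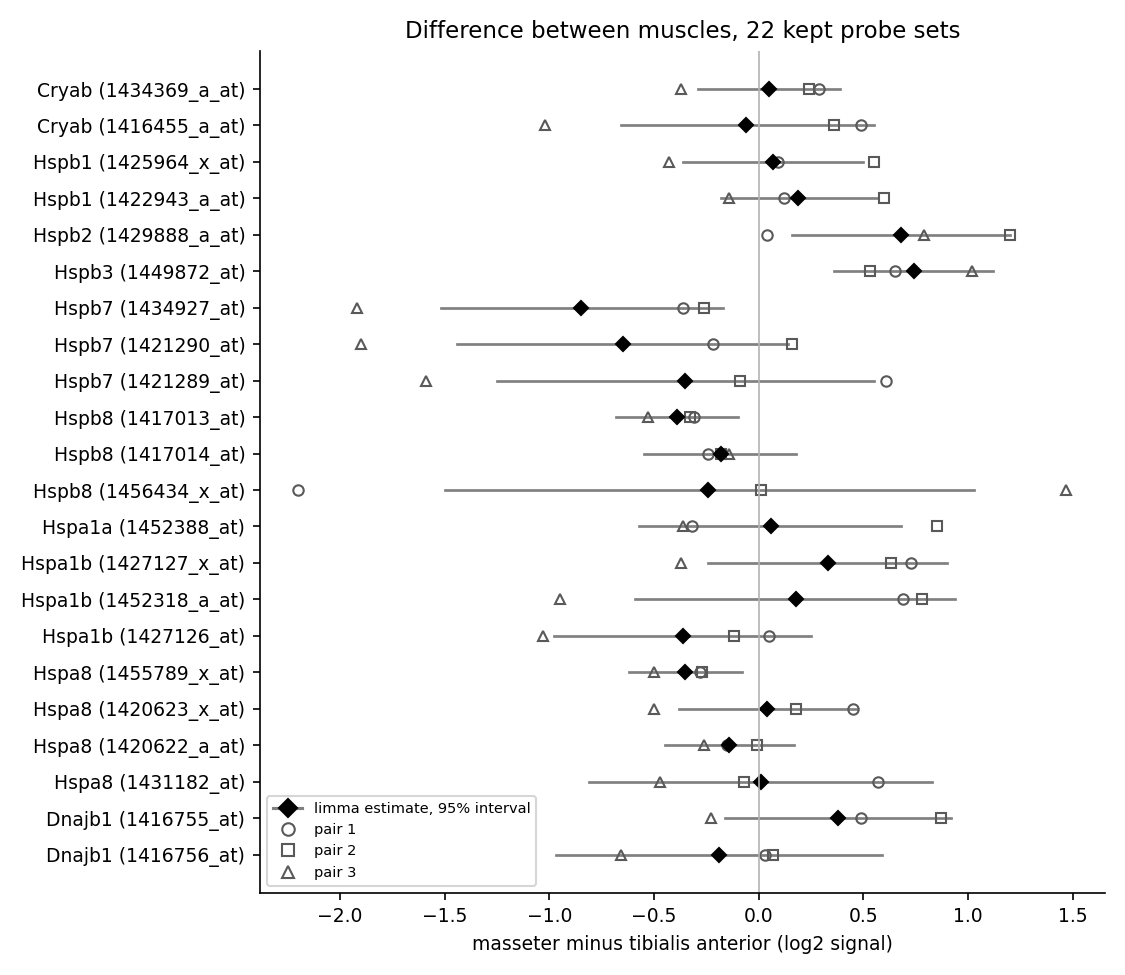
Log2 difference between masseter and tibialis anterior (horizontal axis) for the 22 kept probe sets of the 10 genes (vertical axis, probe set identifier in brackets). Filled diamonds are limma estimates with 95% intervals and open symbols are the 3 numbered pairs; Hspb3 and Hspb2 lie to the right of 0 in all 3 pairs, and for every Cryab, Hspb1, Hspb7 and Hspa1b probe set pair 3 lies farthest to the left.

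Hspb3 and Hspb2 had the highest estimates in favour of the masseter. Their proteins bind each other and are made mainly in heart and skeletal muscle, where Hspb2 also binds the myotonic dystrophy protein kinase. Hspb3 was read by 1 probe set, which gave 473, 511 and 571 in the masseter against 300.5, 354 and 281 in the tibialis anterior. Every masseter array lay above every tibialis anterior array, as in 9.21% of all probe sets, and the 3 pairs gave differences of 0.65, 0.53 and 1.02. The estimate was 0.74 ± 0.17 (SE), a ratio of 1.67 with a 95% interval of 1.28 to 2.17, and limma's adjusted p was 0.0941. Across the alternatives that adjusted p ran from 0.069 to 0.311, and without tibialis anterior 3, in a fit without the block, the difference was 0.66 ± 0.18.

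For Hspb2 the masseter arrays read 331, 420 and 461, and the tibialis anterior arrays 322, 183 and 266. The groups did not overlap, although masseter 1 and tibialis anterior 1 were close, and the pairs differed by 0.04, 1.20 and 0.79. The estimate was 0.68 ± 0.23 (SE; 95% interval 0.16 to 1.20) with an adjusted p of 0.246 in limma's test, and it was 0.72 ± 0.27 without tibialis anterior 3 in a fit without the block. Hspb2 and Cryab are neighbours in the RefSeq annotation of GRCm38.p6, and in the mouse they are known to be transcribed away from each other from a shared intergenic region. Their signals did not run in parallel across the 6 arrays. Hspb2 was highest in masseter 3, whereas Cryab was highest in tibialis anterior 3. The Pearson correlation of their log2 signals over the 6 arrays was 0.19, given as a description.

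**Figure D2:**
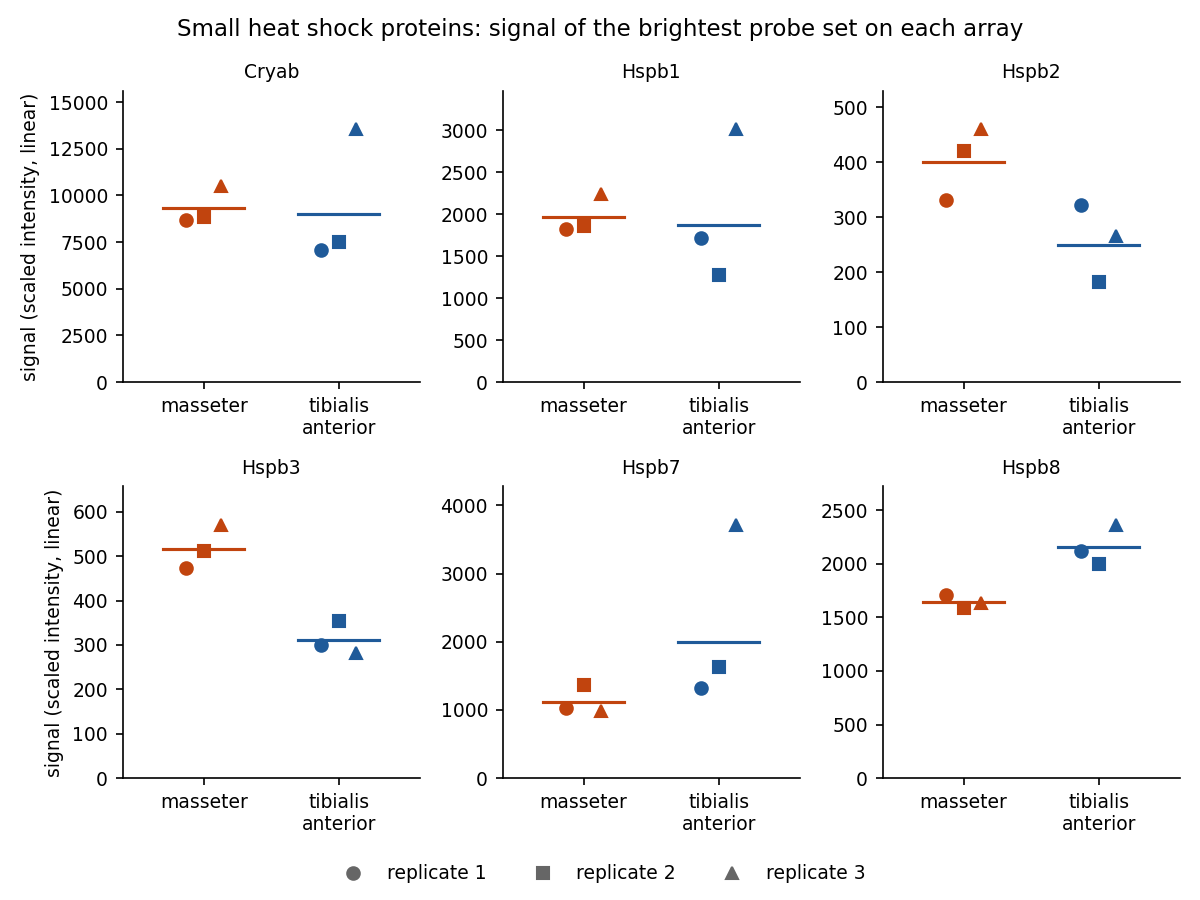
Signal intensity (vertical axes, linear, from 0) of the brightest probe set of each small heat shock protein gene on the 6 arrays, masseter on the left and tibialis anterior on the right of each panel. Symbols mark the replicate number and bars the mean of the log2 signals; Hspb2 and Hspb3 are higher in all masseter arrays, Hspb8 is higher in all tibialis anterior arrays, and Cryab, Hspb1 and Hspb7 peak in tibialis anterior 3.

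Hspb8 and Hspb7 had estimates in favour of the tibialis anterior. Hspb8 works with the co-chaperone Bag3 to clear damaged filamin by autophagy, and its brightest probe set varied little within each muscle. It gave 1708, 1584 and 1635 in the masseter against 2115, 1994 and 2365 in the tibialis anterior. All masseter arrays lay below all tibialis anterior arrays, as in 8.63% of all probe sets, and the pairs differed by -0.31, -0.33 and -0.53. The estimate was -0.39 ± 0.13 (SE; 95% interval -0.68 to -0.10, limma adjusted p = 0.234), and it stayed between -0.45 and -0.32 when 1 array or 1 pair was left out, with -0.32 both without pair 3 and without tibialis anterior 3 alone. The second Hspb8 probe set had a difference of -0.18 ± 0.16, with groups that overlapped. The third ranged from 69.9 to 320 over the 6 arrays, with masseter 1 and tibialis anterior 3 lowest, and its difference of -0.24 ± 0.55 spans both directions. The Bag3 signal differed by 0.01 ± 0.26 (adjusted p = 0.99).

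Hspb7, the cardiovascular small heat shock protein, binds filamin C and is needed for sarcomere integrity in the heart. The masseter signals of its brightest probe set were 1028, 1362 and 982, and those of the tibialis anterior 1317, 1635 and 3718. The groups overlapped, because masseter 2 exceeded tibialis anterior 1, and tibialis anterior 3 was 2.53-fold above the mean of the other tibialis anterior arrays. The estimate of -0.85 ± 0.29 (SE; 95% interval -1.52 to -0.17, limma adjusted p = 0.262) fell in size to -0.40 ± 0.19 without tibialis anterior 3, in a fit without the block. The other Hspb7 probe sets showed the same array on top, at 2.74 and 2.69 times the mean of its companions, and their estimates were -0.65 ± 0.34 and -0.35 ± 0.39. Without tibialis anterior 3 they were -0.17 ± 0.21 and 0.12 ± 0.34.

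Cryab encodes alpha-B-crystallin, which protects desmin and titin. The brightest of its probe sets gave 8681, 8840 and 10501 in the masseter against 7102, 7508 and 13583 in the tibialis anterior. The masseter arrays lay between the lower and the highest tibialis anterior readings, so the groups overlapped. The estimate was 0.05 ± 0.15 (SE; 95% interval -0.29 to 0.39, limma adjusted p = 0.926), and it was 0.35 ± 0.15 without tibialis anterior 3 in a fit without the block (adjusted p = 0.458). The second probe set read 4036, 3741 and 3920 in the masseter, a spread of 1.08-fold, against 2865, 2919 and 7961 in the tibialis anterior. Its estimate was -0.06 ± 0.26, and without tibialis anterior 3 it was 0.43 ± 0.14 (adjusted p = 0.294). The sign for this probe set thus changed without that array, and it also changed with all arrays kept under quantile normalization (0.02). The remaining Cryab probe set, with signals of 2.6 to 33.6, lay under the filter and was not tested.

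Hspb1, also called Hsp27 or Hsp25, binds actin and filamin and is phosphorylated under stress. Masseter arrays gave 1828, 1864 and 2235 on its brightest probe set, against 1714, 1270 and 3020 for the tibialis anterior. Again the lowest and the highest readings were both in the tibialis anterior, and the estimate was 0.07 ± 0.19 (SE; 95% interval -0.36 to 0.50, limma adjusted p = 0.918). The second probe set gave 0.19 ± 0.16 with the same order of tibialis anterior arrays. Without tibialis anterior 3 and without the block, the estimates were 0.41 ± 0.18 and 0.55 ± 0.24 (adjusted p = 0.48 and 0.465). Cryab and Hspb1 ran closely together over the 6 arrays, with a Pearson correlation of 0.92 between their brightest probe sets, which share the arrays and tibialis anterior 3 as their top reading.

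The promoter sequence bears on this group because heat shock factor 1 binds GAA and TTC units. RefSeq windows of GRCm38.p6, with 250 bases before each start, were matched to 7 of the 10 genes in 8 windows, and Cryab, Hspb2 and Hspa8 were not matched. A pair of units, GAANNTTC or TTCNNGAA on either strand, was found in 4 of these 8 windows and in 12.8% of all 32851 windows. The 4 windows were those of Hspb1, Hspb3, Hspa1a and Hspa1b. Those of Hspa1a and Hspa1b are near-identical copies that share their pair, so the 4 matches are not independent. The 3-unit form, GAANNTTCNNGAA or its reverse complement TTCNNGAANNTTC, which contains the pair, was in 0 of the 8 and in 0.466% of all. Hspb1 held a pair at 117 and at 97 bases before the start and Hspb3 held 1 at 224 bases, whereas the windows of Hspb7, Hspb8 and Dnajb1 held none of these letters. They are shown because these are the small heat shock protein genes with a match, in lower case with the pair of units in capitals. A match of letters is a description and says nothing of binding in these muscles. The Hspb1 stretches lie at chr5:135887782-135887829 and chr5:135887802-135887849 on the plus strand and overlap each other, and the Hspb3 stretch lies at chr13:113663873-113663920 on the minus strand.
Hspb1, distal pair: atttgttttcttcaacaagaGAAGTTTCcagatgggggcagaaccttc
Hspb1, proximal pair: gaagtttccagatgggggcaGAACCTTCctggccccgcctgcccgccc
Hspb3: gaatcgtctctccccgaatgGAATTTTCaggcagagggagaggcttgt

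Hspa1a and Hspa1b encode the stress-inducible Hsp70 proteins and are neighbouring, near-identical copies on mouse chromosome 17. Their array signals may therefore hold transcript of either copy, and they are read here as 1 pair. The 250 bases before their starts are printed because they show how alike the copies are: 247 of 250 positions, or 98.8%, were identical. The differing bases are in capitals and are, from Hspa1a to Hspa1b and counted from 1 at the 5' end of the stretch, C44T, T47C and T249G. Both hold 1 pair of heat shock element units, 104 bases before the start and the same in both copies. The Hspa1a stretch lies at chr17:34972157-34972406 and the Hspa1b stretch at chr17:34959239-34959488, both on the minus strand of GRCm38.p6.
Hspa1a: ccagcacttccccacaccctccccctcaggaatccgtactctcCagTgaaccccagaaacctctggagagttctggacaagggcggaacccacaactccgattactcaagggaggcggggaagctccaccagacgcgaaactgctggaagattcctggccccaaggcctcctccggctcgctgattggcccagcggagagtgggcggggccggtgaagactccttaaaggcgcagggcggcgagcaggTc
Hspa1b: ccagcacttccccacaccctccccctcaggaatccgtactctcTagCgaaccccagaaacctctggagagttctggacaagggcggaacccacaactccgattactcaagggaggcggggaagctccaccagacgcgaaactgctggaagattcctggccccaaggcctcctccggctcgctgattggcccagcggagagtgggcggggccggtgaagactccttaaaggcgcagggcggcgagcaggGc

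Readings of the Hsp70 pair spread more widely within each muscle than the group means lay apart. On the brightest Hspa1b probe set the masseter read 254, 114 and 170, against 153, 73.7 and 220 for the tibialis anterior. The groups overlapped, with tibialis anterior 2 lowest and masseter 1, the array with the salivary transcripts, highest. The estimate was 0.33 ± 0.25 (SE; 95% interval -0.24 to 0.90, limma adjusted p = 0.642), and in fits without the block leaving out masseter 1 gave 0.04, leaving out tibialis anterior 2 gave -0.11 and leaving out tibialis anterior 3 gave 0.68. The other Hspa1b probe sets gave 0.18 ± 0.33 and -0.36 ± 0.27, so the probe sets of 1 gene differed in sign, and each interval held 0. Hspa1a gave 125, 107 and 100.5 in the masseter against 156, 59.7 and 129 in the tibialis anterior. Its tibialis anterior readings spanned 2.61-fold and enclosed all masseter readings, and its estimate was 0.06 ± 0.27 (95% interval -0.57 to 0.68, adjusted p = 0.958), or 0.20 ± 0.38 without tibialis anterior 3 and the block.

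Dnajb1, the heat-inducible J-domain partner of these proteins, followed the order of Hspa1b in the tibialis anterior. Readings of its brighter probe set were 219, 188 and 150.5 in the masseter against 156, 103 and 176 in the tibialis anterior. Tibialis anterior 2 was again the lowest of the 6 arrays, and the groups overlapped. The estimate was 0.38 ± 0.24 (SE; 95% interval -0.16 to 0.92, limma adjusted p = 0.565), and the dimmer probe set, with signals of 28.1 to 51.6, gave -0.19 ± 0.34. Without tibialis anterior 3 and the block, the brighter one gave 0.54 ± 0.26. Over the 6 arrays Dnajb1 correlated with Hspa1b at 0.79 and with Hspa1a at 0.75 in log2 signal, described here without a test. Tibialis anterior 2 was the lowest array in 7 of the 22 member probe sets (31.8%), against 15.9% of all probe sets kept. The dimmer Dnajb1 probe set and the dimmest Hspa1b probe set were lowest in masseter 3 instead.

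Hspa8 encodes Hsc70, the constitutive Hsp70 protein of the cytosol, which also uncoats clathrin and carries clients to the lysosome. The masseter gave 5722, 3888 and 3852 on its brightest probe set, and the tibialis anterior 6965, 4700.1 and 5449. The masseter lay below the tibialis anterior in every pair, by -0.28, -0.27 and -0.50, although the groups overlapped because arrays of replicate 1 were high in both muscles. The estimate was -0.35 ± 0.12 (SE; 95% interval -0.62 to -0.08, limma adjusted p = 0.244), and -0.38 ± 0.23 without tibialis anterior 3 and the block. With all arrays but without the block, the estimate was -0.35 ± 0.19 (limma adjusted p = 0.53), so its precision rested on the block. The third probe set had the narrowest range, 1031 to 1088 in the masseter and 1093 to 1241 in the tibialis anterior, without overlap and with a difference of -0.14 ± 0.13. The second and the dimmest, with 0.04 ± 0.19 and 0.01 ± 0.36, did not follow that direction.

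**Figure D3:**
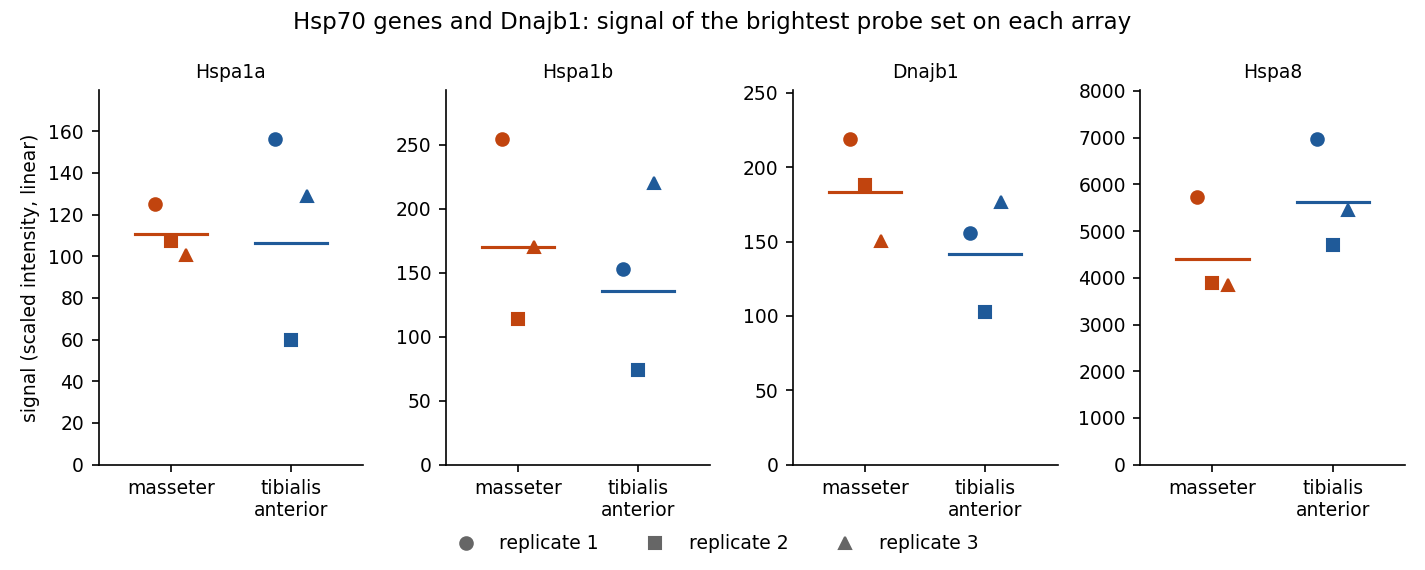
Signal intensity (vertical axes, linear, from 0) of the brightest probe set of Hspa1a, Hspa1b, Dnajb1 and Hspa8 on the 6 arrays, masseter on the left and tibialis anterior on the right of each panel, with symbols for the replicate number and bars for the mean of the log2 signals. Tibialis anterior 2 is the lowest array for Hspa1a, Hspa1b and Dnajb1, and the groups overlap in all 4 panels.

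A contrast also lay inside the tibialis anterior, between array 3 and the other arrays of that muscle, a pattern singled out after the values were seen. Tibialis anterior 3 was the highest of all 6 arrays in 12 of the 22 member probe sets (54.5%), against 12.2% of all probe sets kept. Its log2 signal exceeded the mean of tibialis anterior 1 and 2 by a median of 0.49 over the members and -0.03 over all probe sets. The excess reached 1, a doubling, in 8 of the 22 member probe sets and in 1.78% of all probe sets. Those were the second Cryab probe set at 1.46, both Hspb1 probe sets at 1.03 and 1.06, the Hspb7 probe sets at 1.34, 1.45 and 1.43, and the brighter Hspa1b probe sets at 1.05 and 1.14. Probe sets of the same gene were counted separately here. Of the brightest probe sets, those of Cryab, Hspb1, Hspb7 and Hspb8 alone were highest in tibialis anterior 3. The excess was 0.13 for Hspb2, -0.21 for Hspb3 and 0.20 for the brightest Hspb8 probe set, for which tibialis anterior 3 was still the highest array.

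**Figure D4:**
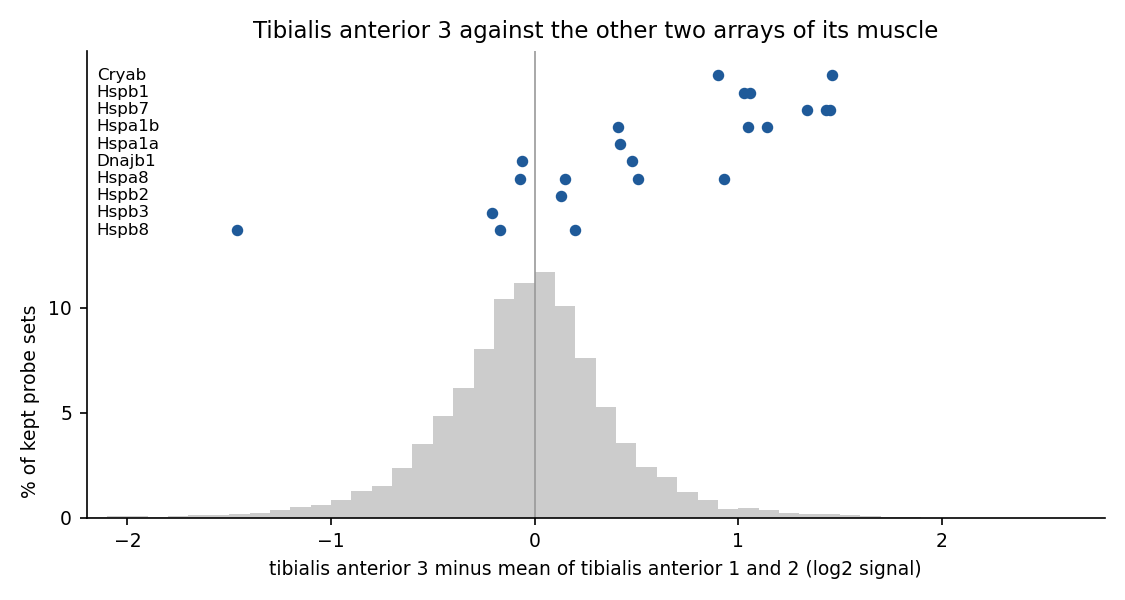
Log2 signal of tibialis anterior 3 minus the mean of tibialis anterior 1 and 2 (horizontal axis). Grey bars give the percentage of all 13576 kept probe sets per bin of 0.1 (45 lie below and 2 above the axis), and blue points above them give the member probe sets, 1 row per gene; those of Cryab, Hspb1 and Hspb7 lie at 0.90 to 1.46, in the upper tail of the bars.

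Other groups of genes moved on the same array, and their part in these readings was not tested. Of the immediate-early genes, 8 of 18 peaked in tibialis anterior 3, with a median excess of 0.57, and of the chaperones of the endoplasmic reticulum 7 of 13 did, with a median excess of 0.52. Among the other lists, 4 of 10 clients and Z-disc partners, 3 of 7 other Hsp70, Hsp110 and Hsp90 genes, 2 of 10 J-domain genes, 2 of 16 other co-chaperones, 2 of 8 TRiC subunits and 0 of 8 mitochondrial chaperones peaked there. Hspa5, the Hsp70 protein of the endoplasmic reticulum, read 4194 there and 2085 and 2066 in tibialis anterior 1 and 2. Csrp3, a stretch-responsive Z-disc protein chosen after its values were seen, read 9886 there and 1261 and 900 in the other tibialis anterior arrays. It was taken from the slow-fibre genes, of which 3 of 12 peaked there, with a median excess of -0.31. Of the partners, filamin C (Flnc) read 1474 there against 586 and 352, and alpha-actinin 2 (Actn2) read 5807 against 2335 and 2652. Of the J-domain genes, whose median excess was 0.01, Dnaja4 read 1128 against 346 and 373. Flnc, Actn2 and Dnaja4 were chosen after their values were seen, and their lists' other members are counted above. Summed markers of other cell types on tibialis anterior 3, with tibialis anterior 1 and 2 in brackets, were 2587 (2760 and 2011) for endothelium, 6297 (5250 and 4933) for smooth muscle, 5019 (3916 and 3021) for adipocytes, 618 (858 and 886) for macrophages, 5347 (6229 and 6606) for fibroblasts and tendon and 2522 (6010 and 3381) for salivary gland. The adipocyte sum was mostly Fabp4, at 4826 (3514 and 2772), whereas Adipoq, at 106 (227 and 109), was lowest on tibialis anterior 3. In bulk muscle, fewer cells of a type and less RNA per cell cannot be told apart.

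The wider chaperone network likewise held no call between the muscles. A further 8 lists covered other Hsp70, Hsp110 and Hsp90 genes, other small heat shock proteins, J-domain proteins, other co-chaperones, the TRiC chaperonin, mitochondrial and endoplasmic reticulum chaperones and heat shock factors. Of their 65 genes kept, 0 were higher and 0 lower in the masseter by limma's adjusted p. Over all probe sets kept the share that passed was 1.18%, so a count of 0 lies near the background. An unadjusted p under 0.05 was reached by 5 (7.69%), against 13.1% of all probe sets, and the median difference was 0.01. The list medians ran from -0.20 for the heat shock factors to 0.12 for the other small heat shock proteins, of which 1 gene was kept. The brightest members included Hsph1, an Hsp110 exchange factor, at 0.31 ± 0.14 (adjusted p = 0.406), Hspa9, the mitochondrial Hsp70, at -0.28 ± 0.13 (adjusted p = 0.432), and Tcp1, a TRiC subunit, at -0.17 ± 0.12 (adjusted p = 0.619). Hspd1, the mitochondrial Hsp60, was at 0.35 ± 0.13 (adjusted p = 0.307), and Hspa5 was at -0.31 ± 0.22 (adjusted p = 0.617). Of 10 clients and Z-disc partners, 0 passed in either direction and the median difference was 0.01, with Myot at 0.16 ± 0.12 and Ldb3 at -0.25 ± 0.12.

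Fibre-type genes did pass in the same fit. Of 12 slow-fibre genes, 3 were lower in the masseter (Myl3, Myl2 and Car3), 0 were higher and the median was -0.96. Of 11 fast-fibre genes, 2 were lower (Myh4 and Actn3), 0 were higher and the median was -0.15. The Myh4 call held in 14 of 15 alternatives and the Actn3 call in 7 of 15, with adjusted p-values of up to 0.155 and 0.292. Of 18 immediate-early genes, Ccn1, a matricellular protein, was lower (-1.68 ± 0.20, adjusted p = 0.0093) and the median was -0.05. In rat muscle, alpha-B-crystallin and Hspb1 are known to be more abundant in slow than in fast fibres. Beside these lower slow-fibre transcripts, the mouse transcript estimates here were 0.05 for Cryab and 0.07 for Hspb1 on their brightest probe sets. Without tibialis anterior 3 and the block they were 0.35 and 0.41, and a link to fibre type was not tested.

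**Figure D5:**
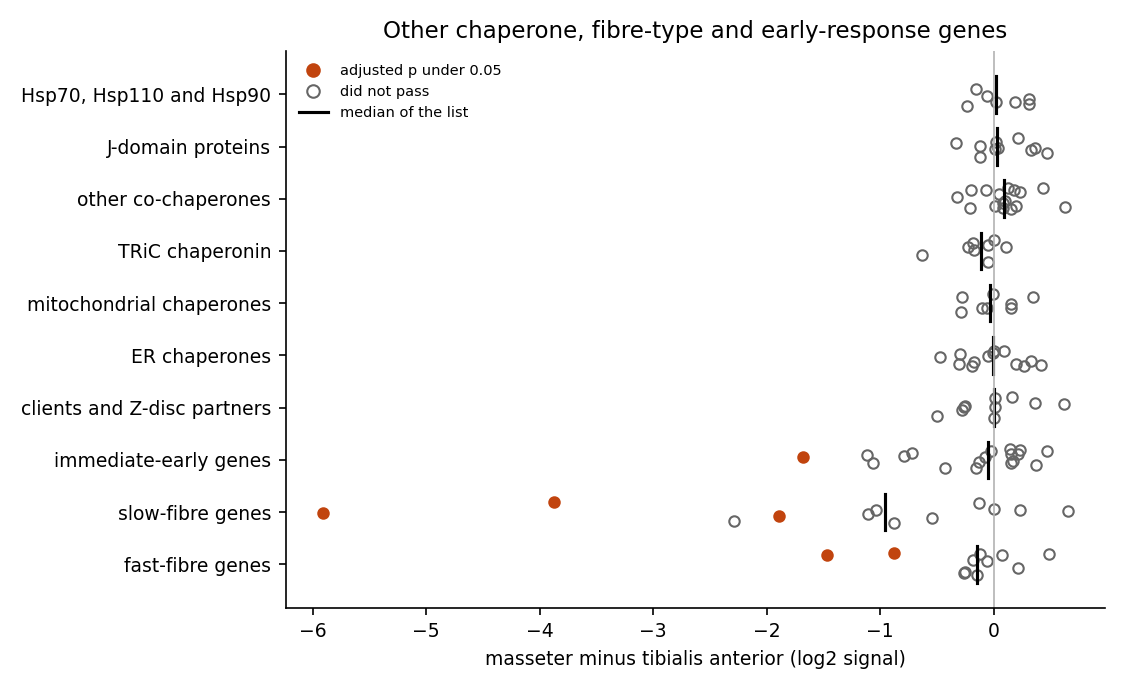
Log2 difference between masseter and tibialis anterior (horizontal axis) for genes of 6 chaperone lists, the client and partner list, and the fibre-type and immediate-early lists (vertical axis; 2 chaperone lists with 1 or 2 kept genes are not drawn), 1 point per gene at its brightest probe set and a black bar at the list's median. Filled points passed an adjusted p under 0.05; they are 3 slow-fibre, 2 fast-fibre and 1 immediate-early gene, all lower in the masseter, and 0 chaperone genes.

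Genes whose levels ran most like the mean profiles of 2 groups of members over the 6 arrays were sought among 8306 others. They are given as a description with no test. The mean profile of Hspa1a, Hspa1b and Dnajb1 was most like Plod1 (r = 0.988), a lysyl hydroxylase, followed by Pigx (0.986), Cenpc1 (0.976), Aldh16a1 (0.974) and Ptpa (0.968). Each of these was lowest in tibialis anterior 2. The 6 small heat shock protein genes did not share a profile. Pearson correlations between their brightest probe sets ran from -0.97 (Hspb3 with Hspb8) to 0.92 (Cryab with Hspb1). Their mean profile was most like Gimap6 (r = 0.99), Rbpjl (0.987), Fscn1 (0.976), Htra1 (0.971), a secreted serine protease, and Hipk1 (0.964). Each of these was highest in tibialis anterior 3, where Htra1 read 420 against 227 and 204 in the other tibialis anterior arrays.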

How the data were processed

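Biotin-labelled RNA of each muscle was hybridised to its own array, per the labels' protocols. Values deposited by the authors are linear signal intensities. MAS5 and GCOS are named in the submitters' processing notes, with settings not given in the sources read here. Because the 2% trimmed mean was 150.1 on each array, the values were not rescaled. Probe sets were named by platform annotation checked against RefSeq by gene identifier: of 22690, 64 were controls, 20380 had 1 symbol, 691 several and 1555 none.

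A floor of 1 was applied before taking log2. Probe sets whose mean log2 signal reached the 40th percentile of the 22626 non-controls (log2 4.84, signal 28.6) were kept. A two-sided limma 3.58.1 fit (R 4.3.3, lmFit and eBayes with trend) compared the muscles. It took the replicate number as a fixed block, since pairing is named in the design text, and p-values were Benjamini-Hochberg adjusted over the 13576 kept, at a threshold of 0.05. The procedure was tested on simulated data. Mean signals are geometric.

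The members, gene lists, settings and rule for named genes were chosen with earlier results of these data known. Every member was named, as were the most similar genes by Pearson correlation. Of the chaperone, partner, fibre-type and immediate-early lists, genes past the threshold were named, or otherwise some of the brightest, though not for every list. Marker genes were named in part. Among the markers, Pip and Smr3a of the salivary gland and Adipoq of adipocytes were higher in the masseter past the threshold, and Myh4 and Actn3 were lower. For Pip and Smr3a the groups overlapped: masseter 1 read 8071 and 10656, whereas masseter 3, at 24.2 and 42.1, lay below tibialis anterior 1, at 72.4 and 376. The calls of Pip, Smr3a and Adipoq held in 6, 5 and 7 of 15 alternatives, with limma adjusted p-values of up to 0.568, 0.819 and 0.458. A gene outside the members is its brightest probe set. Alternatives covered the block, moderation, offset, filter, scaling and left-out arrays.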

Additional observations from a re-analysis of the deposited data

How the results depend on the processing

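The count of 0 member probe sets past the threshold held in all 15 alternatives, with 1 to 8 at an unadjusted p under 0.05. Over all probe sets, 160 passed; 138 did without the replicate block, where the members had 0, and 13 with eBayes without trend. Leaving out 1 pair or, without the block, 1 array gave 45 to 173. The deviations of same-numbered arrays from their group means correlated at 0.04, 0.15 and 0.10, and not all were over 0.1. Among all other lists, chaperone, partner, fibre-type and immediate-early, 6 genes passed, 3 slow-fibre, 2 fast-fibre and 1 immediate-early; 1 passed without trend, and 4 to 10 with 1 pair or array left out, 10 being without replicate 3. Of 328 recomputed member differences, 287 kept their sign and 41, in 12 of the 22 probe sets, changed it; the 95% interval of each of the 12 held 0 and none was past the threshold, and the cause was not tested. With quantile normalization, the second Cryab probe set gave 0.02, Hspa1a -0.01 and the dimmest Hspa8 probe set -0.03, and with an offset of 16 the last gave -0.0049. With 1 pair or array left out, the ranges of those that changed sign were -0.12 to 0.35 and -0.33 to 0.43 for the Cryab probe sets, -0.21 to 0.41 and -0.13 to 0.55 for Hspb1, -0.84 to 0.26 for the third of Hspb7 and -1.09 to 0.74 for the third of Hspb8. They were -0.36 to 0.33 for Hspa1a, -0.11 to 0.68 and -0.20 to 0.74 for the brighter Hspa1b probe sets, -0.16 to 0.31 and -0.27 to 0.32 for the second and the dimmest of Hspa8, and -0.37 to 0.07 for the dimmer of Dnajb1. Dim probe sets near the filter level limit what these arrays can show.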

Other observations

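Among partners of the small heat shock proteins that did not pass, 2 genes are given here that were chosen after their values were seen. Sqstm1, the autophagy receptor p62 to which Bag3 and Hspb8 hand damaged proteins, read 1810, 1673 and 2009 in the masseter against 2776, 2431 and 2530 in the tibialis anterior. Every masseter array lay below every tibialis anterior array, with a log2 difference of -0.50 ± 0.13 (SE, limma adjusted p = 0.133). Vim, the intermediate filament protein vimentin, read 1400, 1915 and 1503 in the masseter against 806, 946 and 1456 in the tibialis anterior, where array 3 lay above masseter 1, so the groups overlapped. Its difference was 0.62 ± 0.19 (limma adjusted p = 0.212), and it passed in 1 of 15 alternatives.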
